A study of Mus musculus with 6 samples.

Results

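Triglyceride and phospholipid are built from glycerol 3-phosphate in a short chain of acylations, and 10 genes of that chain were followed in mouse liver: the glycerol 3-phosphate acyltransferase gene Gpam, the acylglycerol-phosphate acyltransferase genes Agpat1, Agpat2 and Agpat3, the phosphatidate phosphatase (lipin) genes Lpin1, Lpin2 and Lpin3, the diacylglycerol acyltransferase genes Dgat1 and Dgat2, and the monoacylglycerol acyltransferase gene Mogat1. They were matched by exact symbol, and all 10 were found among 35976 genes in the table and passed the filter on low counts. Poly(A) RNA from whole liver was sequenced in 6 libraries, 3 with the genotype label IRE1fl and 3 with IRE1PKO. The mice were male and their diet is labelled HFD, taken to mean a high-fat diet, with livers taken after 16 hours without food and 4 hours of feeding. IRE1, encoded by Ern1, is a stress sensor of the endoplasmic reticulum. PKO is not spelled out in the labels; the series title speaks of the pituitary and the liver, so the deletion may lie in the pituitary, and neither the driver of the deletion nor the age of the mice is given in the sources used here.

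As background, Gpam attaches a fatty acid to glycerol 3-phosphate at the outer mitochondrial membrane, and AGPAT enzymes add another to make phosphatidic acid. Lipins remove the phosphate and leave diacylglycerol, which either enters phosphatidylcholine and phosphatidylethanolamine or is turned into triglyceride by Dgat1 or Dgat2. Mogat1 makes diacylglycerol from monoacylglycerol and so bypasses the phosphate steps. In liver this chain supplies the triglyceride of lipid droplets and of secreted lipoproteins, and its genes answer to feeding and to insulin.

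Libraries held 35776219 to 39277435 counts. Levels are given as CPM, read counts relative to the TMM-scaled total of the library. Tests are edgeR's quasi-likelihood test of IRE1PKO against IRE1fl over 14954 genes with Benjamini-Hochberg adjustment, and a gene is said to have risen or fallen where the adjusted p was under 0.05. In liver, Ern1 had 49.3 to 61.2 CPM in IRE1fl and 36.6 to 45.7 CPM in IRE1PKO, which checks no label if the deletion lies in another organ. The labels do not say that libraries came from separate animals, so the replicate spread behind the p-values may be technical.

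Of the 10 genes, 3 rose in IRE1PKO (Gpam, Lpin2 and Mogat1), none fell and 7 did not pass. At an unadjusted p under 0.05, 5 were higher and 1 lower. No share of all tested genes was computed at that unadjusted cut, here or for the lists below, so those counts have no background. DESeq2 called 3 higher and 1 lower, beside 1182 higher and 890 lower among all 14954 tested genes. With limma-voom it was 3 and 0, beside 801 and 578. Among all tested genes, 5.68% rose and 3.86% fell in edgeR. Groups of libraries did not overlap for 7 of the 10, with 6 higher and 1 lower in IRE1PKO. Over all tested genes the groups did not overlap for 31.0%, and 16.0% were higher without overlap. The median log2 fold change (IRE1PKO over IRE1fl) was 0.27 for the 10 genes and -0.0014 over all tested genes. The genes that rose belong to different steps, and at the AGPAT and DGAT steps no gene passed.

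**Figure D1:**
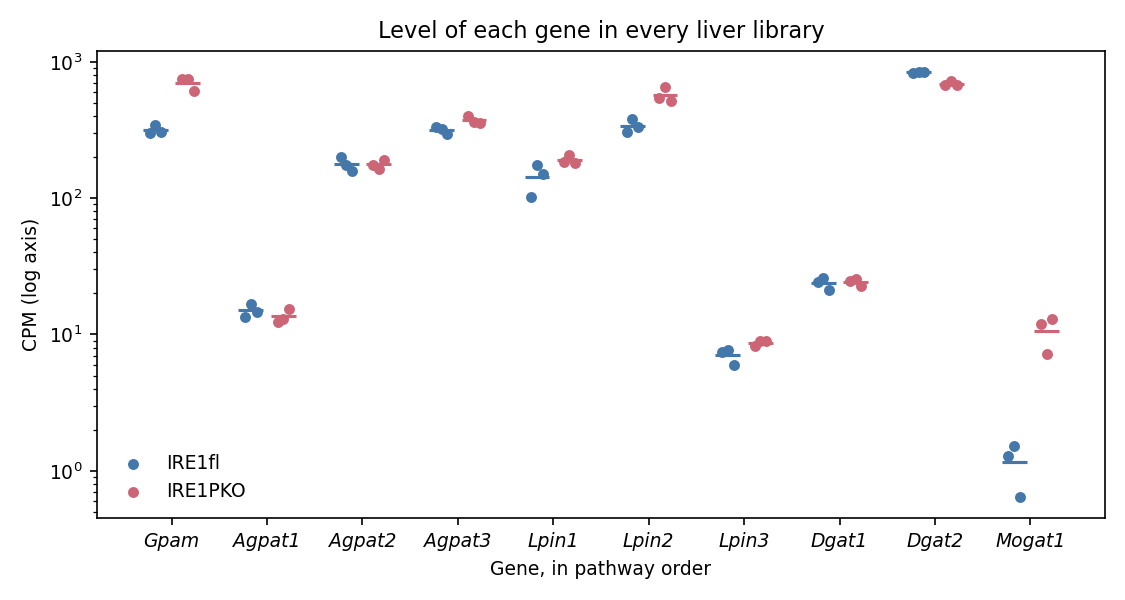
CPM on a log axis for each of the 10 genes in every library, in pathway order, with IRE1fl in blue and IRE1PKO in red; points are libraries and bars are group means (n = 3 each). Gpam, Lpin2 and Mogat1 stand apart between the genotypes, while Agpat1, Agpat2 and Dgat1 overlap.

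The stretches before the RefSeq transcription starts of the 3 genes that rose are shown because these genes passed the test in the same direction; they are from the RefSeq promoter table (build GRCm38.p6), 5′ to 3′ on each gene's strand. Capitals mark matches to any of the 6 motifs searched on both strands: TCACNCCAC (sterol response element), CACGTG (E-box), GGGCGG (GC box), the short motif CCAAT, and AGGTCA repeated head to tail with a spacer of 1 base (PPAR element) or of 4 bases (direct repeat).
Gpam, chr19:55127239-55127488, minus strand: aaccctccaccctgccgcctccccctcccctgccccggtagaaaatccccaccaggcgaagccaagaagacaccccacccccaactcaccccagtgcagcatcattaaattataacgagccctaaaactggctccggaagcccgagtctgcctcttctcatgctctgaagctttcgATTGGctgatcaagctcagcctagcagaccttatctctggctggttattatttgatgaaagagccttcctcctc
Lpin2, chr17:71183282-71183531, plus strand: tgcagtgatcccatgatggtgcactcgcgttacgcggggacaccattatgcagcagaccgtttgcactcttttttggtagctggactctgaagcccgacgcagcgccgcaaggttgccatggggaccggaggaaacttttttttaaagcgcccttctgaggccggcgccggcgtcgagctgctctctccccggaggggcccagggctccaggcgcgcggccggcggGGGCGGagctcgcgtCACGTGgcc
Mogat1, chr1:78510810-78510990, plus strand: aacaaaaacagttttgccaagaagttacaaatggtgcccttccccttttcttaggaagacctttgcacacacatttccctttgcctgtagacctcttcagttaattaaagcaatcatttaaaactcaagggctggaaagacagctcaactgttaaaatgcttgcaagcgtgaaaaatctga
The Gpam stretch held a CCAAT box on the opposite strand, which begins 74 bases before the start. In the Lpin2 stretch a GC box and an E-box were found, the latter beginning 9 bases before the start. No motif was found in the Mogat1 stretch. Such matches were not particular to the genes that rose. GC boxes were also found in windows of Agpat1, Agpat2 and Lpin3, and CCAAT in a window of Agpat1, and these genes did not pass. Windows of Gpam and Lpin2 that are not shown also held GC boxes, and for Lpin2 CCAAT. Of 32851 RefSeq windows of 250 bases, 33.8% held CCAAT, 32.7% GGGCGG, 6.02% CACGTG, 1.05% TCACNCCAC, 0.0335% the PPAR element and 0.0152% the direct repeat. The table had 13 windows for 8 of the 10 genes, without Dgat1 and Dgat2, and none held a match to the sterol, PPAR or direct repeat letters. A match is a string of letters, not a shown binding site, and the absence of one says only that these letters are not in the window. For Gpam and Lpin2, which have several starts in the table, the window listed first is shown, and the Mogat1 stretch stops where GENCODE M21 begins its first exon.

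Gpam (chromosome 19, 55067268 to 55127238) is the mitochondrial acyltransferase that commits glycerol 3-phosphate to lipid synthesis. Its level was 302, 346 and 304 CPM in IRE1fl and 744, 747 and 612 CPM in IRE1PKO. Every IRE1PKO library lay above every IRE1fl library, and IRE1PKO 03 was the lowest of its group. The mean rose from 317 ± 24.5 to 701 ± 77.4 CPM (SD, n = 3), 2.21-fold, a log2 fold change of 1.14 (SE 0.11, 95% interval 0.90 to 1.39, edgeR adjusted p = 0.000257). This was the smallest p among the 10 genes. The call held in all 6 fits that omitted a library, with values of 1.10 to 1.23.

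Gpam shares its reaction with Gpat2, Gpat3 (listed under its older symbol Agpat9) and Gpat4, the last of these an enzyme of the endoplasmic reticulum. Gpat4 had 286, 245 and 219 CPM in IRE1fl and 169, 194 and 213 CPM in IRE1PKO. The IRE1PKO libraries were lower, with IRE1fl 03 and IRE1PKO 03 close to each other, and the log2 fold change of -0.38 (SE 0.12) did not pass (edgeR adjusted p = 0.0747). Gpat3 had 14.7, 10.4 and 6.25 CPM in IRE1fl and 21.4, 19.6 and 20.2 CPM in IRE1PKO, a log2 difference of 0.97 (SE 0.28) that also missed the threshold (edgeR adjusted p = 0.0785). Gpat2 had 2.41 to 2.56 CPM in IRE1fl and 3.57 to 4.08 CPM in IRE1PKO, without overlap, and its log2 difference of 0.63 did not pass either (edgeR adjusted p = 0.0701). To compare genes of unequal length, CPM was divided by the kilobases covered by GENCODE M21 exons. Per kilobase, Gpam made up 48.6%, 56.2% and 56.2% of the 4 genes' sum in IRE1fl and 77.2%, 75.6% and 70.1% in IRE1PKO. Gpat4 made up 42.0% ± 3.43 in IRE1fl and 20.5% ± 3.56 in IRE1PKO (SD, n = 3). The ranges did not overlap for either gene. For Gpam the difference was 20.7 points, with an exact permutation p of 0.1 (two-sided), the smallest that 3 libraries against 3 can give. With coding length the mean Gpam share was 40.2% in IRE1fl and 64.1% in IRE1PKO and that of Gpat4 57.1% and 32.0%, so that which of them was the larger in IRE1fl depends on the length used. This set of 4 genes was chosen after its values were seen. The sum of all 4 per kilobase was 88.9 ± 6.76 in IRE1fl and 141 ± 9.16 CPM per kilobase in IRE1PKO, a log2 ratio of 0.67 that was 0.46 with coding length.

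The AGPAT enzymes convert lysophosphatidic acid to phosphatidic acid, and Agpat2 is the member whose loss causes congenital lipodystrophy. Agpat2 (chromosome 2, 26593057 to 26604417) had 201, 175 and 159 CPM in IRE1fl and 176, 164 and 190 CPM in IRE1PKO. The groups overlapped fully, and the log2 difference was -0.01 with a 95% interval of -0.25 to 0.22 (edgeR adjusted p = 0.953). Agpat1 (chromosome 17, 34604262 to 34613449) had 13.5, 16.8 and 14.7 CPM in IRE1fl and 12.3, 13.1 and 15.5 CPM in IRE1PKO. Its libraries also overlapped, with a log2 difference of -0.14 (95% interval -0.43 to 0.15, edgeR adjusted p = 0.556). Small parts of these genes' exons also lie in exons of a gene on the opposite strand: 64 bases of Agpat2 in Egfl7 and 101 bases of Agpat1 in Egfl8. Whether the counting used strand is not given in the sources used here.

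Agpat3 (chromosome 10, 78269178 to 78352489) encodes an enzyme that prefers polyunsaturated acyl groups. It had 331, 321 and 294 CPM in IRE1fl and 402, 363 and 355 CPM in IRE1PKO. All IRE1PKO libraries were higher, but the log2 difference of 0.24 (SE 0.10, 95% interval 0.03 to 0.46) did not pass (edgeR adjusted p = 0.143). Within Agpat1, Agpat2 and Agpat3 summed per kilobase, Agpat3 made up 31.4% ± 1.12 in IRE1fl and 35.5% ± 2.52 in IRE1PKO (SD, n = 3). Those shares did not overlap (exact permutation p = 0.1, two-sided), though the closest libraries, IRE1fl 03 and IRE1PKO 03, had 32.2% and 32.6%. With coding length Agpat3 made up 54.8% and 59.3%, the largest share of the 3 in both groups. The summed level of the 3 genes was 129 ± 12.0 and 135 ± 6.53 CPM per kilobase. Agpat4, Agpat5 and Lclat1, other enzymes listed at this step, did not pass, with log2 differences of 0.53, -0.09 and 0.10. Agpat4 had 0.851 to 1.25 CPM in IRE1fl and 1.39 to 1.49 CPM in IRE1PKO, without overlap (edgeR adjusted p = 0.33).

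**Figure D2:**
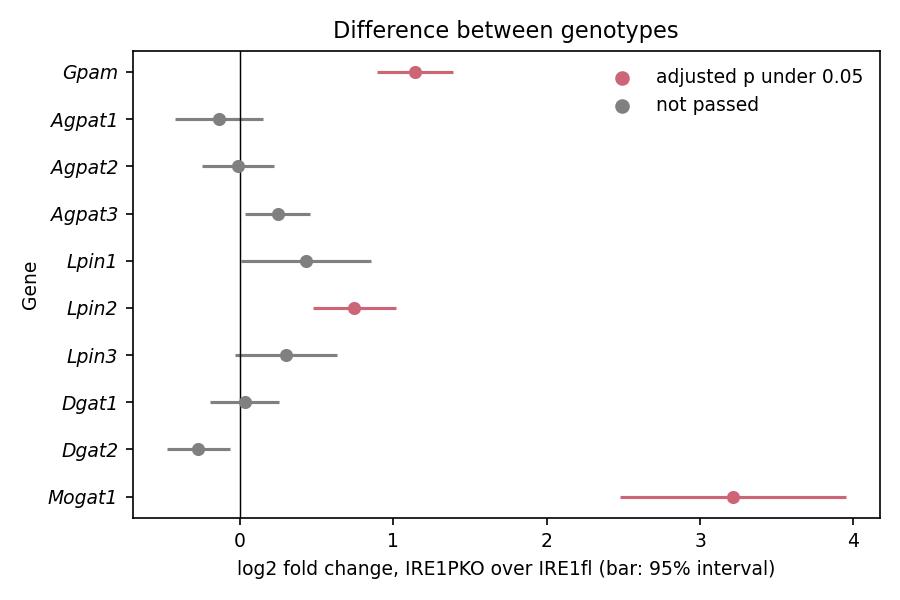
Log2 fold change of each of the 10 genes, IRE1PKO over IRE1fl, with its 95% interval from the edgeR fit (not adjusted for the number of genes). Gpam, Lpin2 and Mogat1 passed (red), and the intervals of Agpat1, Agpat2, Dgat1 and Lpin3 include 0.

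Lipins dephosphorylate phosphatidic acid, and Lpin1 can also act in the nucleus as a partner of PPAR coactivators. Lpin2 (chromosome 17, 71182560 to 71249817) is known as the prevalent lipin of liver. It had 306, 382 and 331 CPM in IRE1fl and 539, 654 and 515 CPM in IRE1PKO. The groups were well apart, with IRE1PKO 02 the highest. The mean rose from 340 ± 38.4 to 569 ± 74.4 CPM (SD, n = 3), 1.68-fold, a log2 fold change of 0.75 (SE 0.12, 95% interval 0.48 to 1.01, edgeR adjusted p = 0.00379). It passed with each library left out in turn, with values of 0.63 to 0.84.

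Lpin1 (chromosome 12, 16535669 to 16610966) had 101, 176 and 150 CPM in IRE1fl and 185, 207 and 182 CPM in IRE1PKO. The highest IRE1fl library lay just under the lowest of IRE1PKO, and IRE1fl 01 was far below the rest. The log2 difference of 0.43 (SE 0.18, 95% interval 0.0038 to 0.85) did not pass (edgeR adjusted p = 0.196), and it was 0.23 without IRE1fl 01. Lpin3 (chromosome 2, 160880670 to 160906002), a minor form in liver, had 7.45, 7.72 and 6.01 CPM in IRE1fl and 8.16, 8.93 and 8.95 CPM in IRE1PKO. Its groups did not overlap, but the log2 difference of 0.30 (95% interval -0.03 to 0.63) did not pass (edgeR adjusted p = 0.249).

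Although Lpin2 passed and Lpin1 did not, their shares of the lipin sum were not separated. Per kilobase, Lpin2 made up 66.7%, 60.5% and 61.3% in IRE1fl and 67.3%, 69.2% and 66.5% in IRE1PKO (exact permutation p = 0.2, two-sided). Lpin1 made up 27.9%, 35.4% and 35.05% in IRE1fl and 29.3%, 27.7% and 29.7% in IRE1PKO (exact permutation p = 0.3). In both cases IRE1fl 01 lay within the IRE1PKO range. The 3 lipins summed to 44.4 ± 7.005 CPM per kilobase in IRE1fl and 68.7 ± 7.54 CPM per kilobase in IRE1PKO (SD, n = 3), with no overlap between libraries. Ctdnep1 and Cnep1r1, which form the phosphatase that activates lipins, had log2 differences of -0.10 and -0.08 and did not pass. Plpp1, Plpp2 and Plpp3, lipid phosphate phosphatases outside the lipin family, had 0.57, 0.41 and -0.05 and did not pass.

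Dgat1 and Dgat2 are unrelated enzymes that make triglyceride from diacylglycerol. Dgat2 (chromosome 7, 99153658 to 99182719) had the highest level per kilobase of the 10 genes. It was found at 823, 841 and 843 CPM in IRE1fl and 675, 727 and 674 CPM in IRE1PKO. It was the only one of the 10 that was lower in IRE1PKO without overlap. The log2 difference of -0.27 (SE 0.09, 95% interval -0.48 to -0.07) did not pass in edgeR (adjusted p = 0.0963), and it passed in the DESeq2 Wald test (adjusted p = 0.0191). Dgat1 (chromosome 15, 76502015 to 76511953) had 24.1, 25.8 and 21.3 CPM in IRE1fl and 24.6, 25.4 and 22.7 CPM in IRE1PKO. Its groups overlapped, with a log2 difference of 0.03 and a 95% interval of -0.20 to 0.26 (edgeR adjusted p = 0.891). Dgat2 made up 97.2% ± 0.271 of the per-kilobase sum of both genes in IRE1fl and 96.6% ± 0.13 in IRE1PKO (SD, n = 3). The summed level of both was 279 ± 3.40 and 232 ± 10.2 CPM per kilobase.

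Mogat1 (chromosome 1, 78510991 to 78538173) is little expressed in lean mouse liver and is known to be induced in fatty liver. It had 1.27, 1.53 and 0.647 CPM in IRE1fl, from 46, 54 and 24 counts, and 11.9, 7.22 and 12.9 CPM in IRE1PKO, from 462, 266 and 529 counts. The lowest IRE1PKO library, 02, was still far above the highest of IRE1fl. The mean rose from 1.15 ± 0.455 to 10.7 ± 3.04 CPM (SD, n = 3), 9.28-fold in the fit, a log2 fold change of 3.21 (SE 0.33, 95% interval 2.48 to 3.95, edgeR adjusted p = 0.000723). It passed without each library in turn, with values of 2.92 to 3.47. Of its exon bases, 12.8% also lie in exons of BC035947, a gene on the opposite strand. Mogat2, the intestinal form, stayed between 0.0554 and 0.416 CPM in the 6 libraries and did not pass.

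The order of levels, read per kilobase of exon, shifted at 2 places. In IRE1fl it ran from Dgat2 (271 ± 3.48) through Agpat2 (83.7 ± 9.87), Gpam (47.6 ± 3.68), Agpat3 (40.5 ± 2.46), Lpin2 (27.8 ± 3.14), Lpin1 (14.7 ± 3.94), Dgat1 (7.76 ± 0.756), Agpat1 (4.998 ± 0.554) and Lpin3 (1.91 ± 0.249) to Mogat1 (0.739 ± 0.292 CPM per kilobase, SD, n = 3). No neighbours in that order overlapped between libraries. In IRE1PKO, Gpam (105 ± 11.6) stood above Agpat2 (82.9 ± 6.14), and Mogat1 (6.85 ± 1.95) stood above Lpin3 (2.35 ± 0.121 CPM per kilobase), both also with coding length in place of exon length. Mogat1 stood above Agpat1 (4.54 ± 0.557 CPM per kilobase) with exon length only, since per coding kilobase it had 10.6 CPM and Agpat1 15.9 CPM. In IRE1PKO the libraries of Agpat3 and Lpin2 overlapped, as did those of Mogat1 with Dgat1 and with Agpat1. The length used also turned other pairs. Per coding kilobase, Agpat3 (280 in IRE1fl and 331 CPM in IRE1PKO) exceeded both Agpat2 (214 and 212 CPM) and Gpam (128 and 283 CPM) in both groups. In IRE1fl, Agpat1 (17.5 CPM per coding kilobase) exceeded Dgat1 (15.9 CPM).

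**Figure D3:**
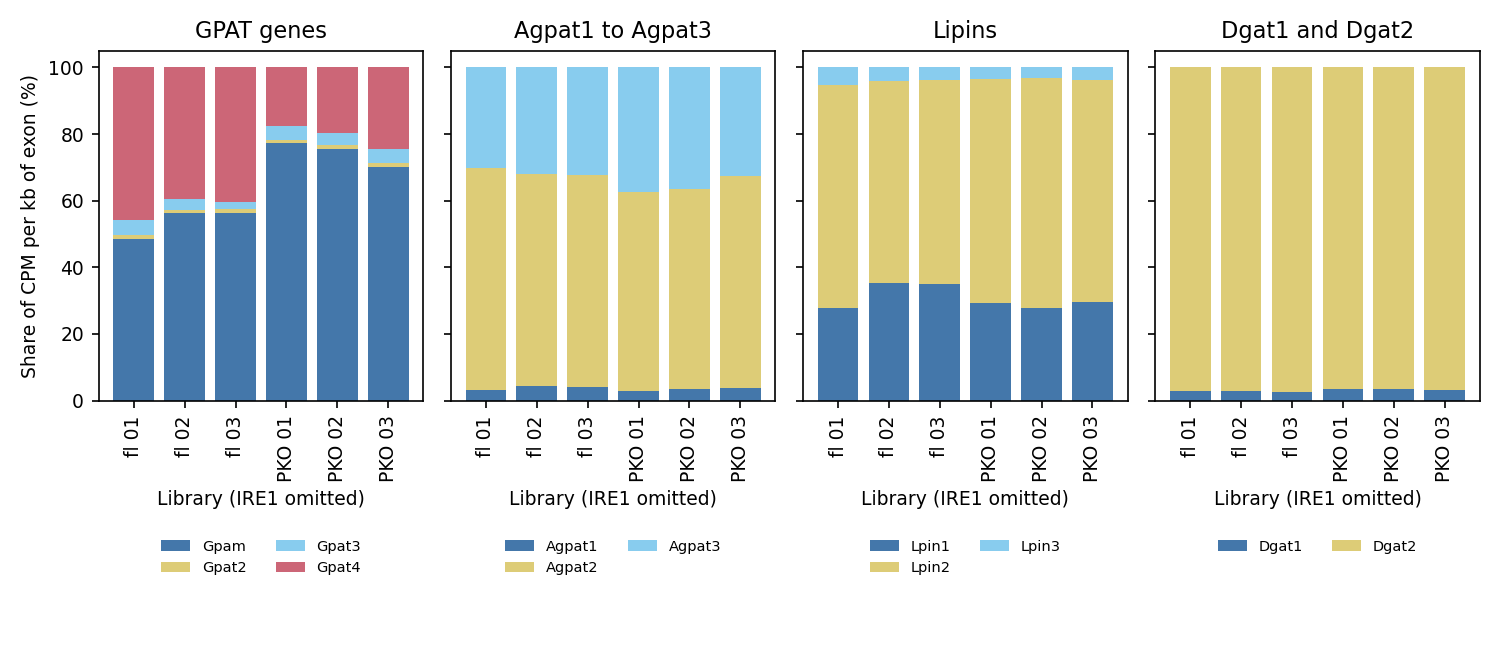
Share of each gene in the CPM per kilobase of exon summed over its group, in every library, for the GPAT genes, Agpat1 to Agpat3, the lipins, and Dgat1 with Dgat2. Gpam takes 48.6% to 56.2% of the GPAT sum in IRE1fl and 70.1% to 77.2% in IRE1PKO, while Dgat2 takes over 96% of its sum in every library.

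Shares were computed for 12 genes in 4 groups, and after Benjamini-Hochberg adjustment over the 12 the smallest p was 0.24. With 3 libraries in each group, no share could pass a threshold of 0.05.

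Around these genes, 80 others were listed in 5 groups, of which 73 were tested, 8 rose and 2 fell, beside 9.54% of all tested genes called in either direction. In the list named glycerol 3-phosphate supply, 2 of 7 tested genes rose and 1 fell. Gk, the glycerol kinase, had 112 to 118 CPM in IRE1fl and 151 to 173 CPM in IRE1PKO, a log2 fold change of 0.48 (SE 0.09, edgeR adjusted p = 0.0065). Gpd2, the mitochondrial glycerol 3-phosphate dehydrogenase, uses glycerol 3-phosphate up and is not a supply enzyme. Its level rose by 0.46 (SE 0.12, edgeR adjusted p = 0.0343). Pck1, the cytosolic phosphoenolpyruvate carboxykinase, which feeds glycerol synthesis from pyruvate as well as glucose output, fell from 1976 ± 384 to 1305 ± 131 CPM (edgeR adjusted p = 0.0251). Gpd1, the cytosolic dehydrogenase, had a log2 difference of 0.59 (SE 0.22) and missed the threshold (edgeR adjusted p = 0.148).

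Of 24 tested genes of the phospholipid branch, 2 rose and 1 fell. Pcyt1a, which makes the CDP-choline that meets diacylglycerol, rose by 0.33 (SE 0.09, edgeR adjusted p = 0.0397), and Chpt1, a cholinephosphotransferase, by 0.42 (SE 0.11, edgeR adjusted p = 0.0353). Etnk2, an ethanolamine kinase, fell by 0.48 (SE 0.12, edgeR adjusted p = 0.0343). Each of these 3 calls was lost on leaving out single libraries: Pcyt1a passed in 0, Chpt1 in 1 and Etnk2 in 1 of 6 such fits, with edgeR adjusted p up to 0.116, 0.124 and 0.139. The Gpd2 call was likewise kept in 1 and the Pck1 call in 3 of 6 (edgeR adjusted p up to 0.117 for both). None of the 13 tested genes at the same steps as the acyltransferases and lipins passed. At an unadjusted p under 0.05, 4 of them were higher and 1 lower, DESeq2 called 3 higher and 1 lower, and limma-voom 1 higher.

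Of 12 tested genes of acylglycerol breakdown, 3 rose and none fell, and none was lower at an unadjusted p under 0.05, with DESeq2 or with limma-voom. Pnpla3, an acylhydrolase of lipid droplets, had 0.539 to 0.908 CPM in IRE1fl and 9.63 to 26.5 CPM in IRE1PKO, a log2 fold change of 4.33 (SE 0.54, edgeR adjusted p = 0.00694). Lipa, the lysosomal acid lipase, had 190 to 218 CPM in IRE1fl and 305 to 348 CPM in IRE1PKO, a log2 fold change of 0.69 (SE 0.10, edgeR adjusted p = 0.00181). G0s2, the inhibitor of adipose triglyceride lipase, rose by 0.74 (SE 0.18, edgeR adjusted p = 0.0408), a call kept in 3 of 6 fits with a library left out (edgeR adjusted p up to 0.115). Pnpla2, the adipose triglyceride lipase itself, had a log2 difference of 0.09 and did not pass.

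**Figure D4:**
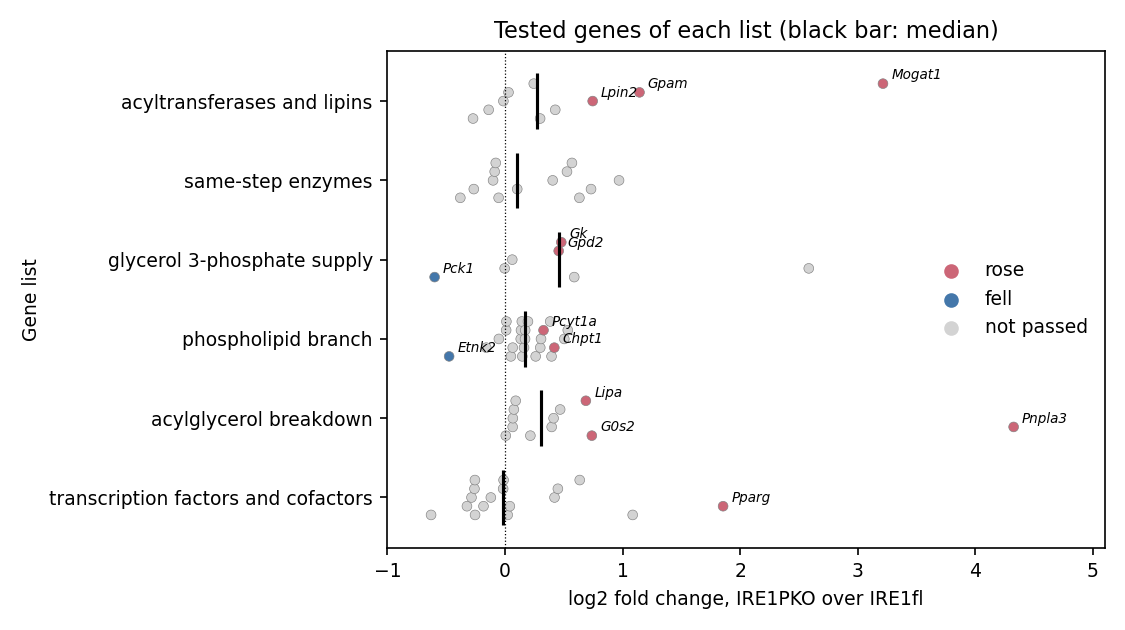
Log2 fold change of every tested gene in the list of 10 and in the 5 lists around it, with genes that rose in red, fell in blue and did not pass in grey; black bars are list medians. Medians ran from -0.02 for transcription factors and cofactors to 0.46 for the list named glycerol 3-phosphate supply, which also holds Gpd2.

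Of 17 genes listed as transcription factors and cofactors, Pparg alone passed in edgeR. The list also holds Scap, Insig1 and Insig2, which regulate the product of Srebf1 and are not transcription factors. At an unadjusted p under 0.05, 5 of the 17 were higher and 5 lower. DESeq2 called 3 higher and 2 lower. Pparg, a nuclear receptor of fat storage, had 11.02, 8.79 and 5.44 CPM in IRE1fl and 29.3, 26.7 and 35.3 CPM in IRE1PKO, with no overlap and a log2 fold change of 1.85 (SE 0.25, edgeR adjusted p = 0.00488). Srebf1, the gene of SREBP1, had 934, 495 and 561 CPM in IRE1fl and 373, 498 and 415 CPM in IRE1PKO. Its groups overlapped and IRE1fl 01 was far above the rest; the log2 difference of -0.63 (SE 0.25) did not pass in edgeR (adjusted p = 0.178) and passed in the DESeq2 Wald test (adjusted p = 0.017). It was -0.30 without that library. Mlxipl, the gene of ChREBP, had a log2 difference of -0.32 (SE 0.12) and missed the threshold (edgeR adjusted p = 0.108), except without IRE1PKO 03, where it was -0.43 (edgeR adjusted p = 0.0408). Ppara had 0.02 (95% interval -0.20 to 0.25, edgeR adjusted p = 0.917). Ppargc1a, the coactivator with which Lpin1 is known to act, had 7.15 to 8.46 CPM in IRE1fl and 9.04 to 12.1 CPM in IRE1PKO and did not pass (edgeR adjusted p = 0.114).

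Genes most like the 2 leading members were found by the root mean square difference of gene-centred log2 CPM over the 6 libraries, among 11219 protein-coding genes with a mean of at least 1 CPM. For Mogat1, the member with the largest fold change, these were Eno1b (0.39), Cidec (0.40) and Rufy4 (0.42 on the log2 scale). Eno1b is a near-identical copy of the enolase gene Eno1, so the reads it was given are uncertain. Cidec, a lipid droplet fusion protein, had 6.41 to 15.7 CPM in IRE1fl and 98.7 to 140 CPM in IRE1PKO. For Gpam they were Capg (0.09), Ttc3 (0.10) and Alpl (0.11), with log2 fold changes of 1.22, 1.06 and 1.01. Since the genes were chosen on the same 6 libraries, fold changes near that of the member follow from the choice.

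Markers of the cell types in the tissue moved beside these genes. Hepatocyte markers were abundant, with Alb at 56457 to 71779 CPM, and 2 of 8 fell (Serpina1a and Cps1). Of 8 stellate cell markers 6 rose, and their summed level was 231 to 288 CPM in IRE1fl and 435 to 444 CPM in IRE1PKO. Of 8 endothelial markers 3 rose, with sums of 185 to 208 and 219.99 to 300.03 CPM. Of 8 macrophage markers 1 rose, with sums of 203 to 268 and 248 to 353 CPM. Of 7 tested cholangiocyte markers 1 rose and 1 fell, with sums of 53.4 to 58.3 and 58.5 to 69.1 CPM. The part of these cells in the differences above was not tested, and in whole tissue fewer cells of a type and less RNA per cell cannot be told apart.

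Adipose tissue expresses Gpam, Agpat2, Lpin1 and Dgat2 at high levels. Some of the adipocyte markers listed were at or near 0 and others were not. Lep had no count in any library, Adipoq at most 0.369 CPM and Plin1 at most 0.227 CPM. Of the 8 adipocyte markers 3 were tested. From IRE1fl to IRE1PKO, Cidea rose from a mean of 0.113 to 19.1 CPM and Adrb3 fell from 20.6 to 7.89 CPM. Cfd had means of 2.39 and 10.6 CPM, without overlap, and did not pass (edgeR adjusted p = 0.0787). The sums over the list were 22.6 to 24.2 CPM in IRE1fl and 32.2 to 48.4 CPM in IRE1PKO. These sums mix genes that moved in opposite directions and so follow no single cell type. In IRE1fl, Adrb3 alone had 19.8 to 21.3 CPM, and in IRE1PKO, Cidea had 6.84 to 31.2 CPM. Of 8 enterocyte markers Sis and Alpi had no count in any library, and 3 were tested. Apoa4 and Fabp2, which hepatocytes also express, rose, and the list's sums were 519.6 to 775 and 2605 to 6035 CPM.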

How the data were processed

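Raw counts per gene symbol, 1 column for each of 6 liver libraries, were deposited by the authors; replicates were not pooled. Per the submitters' processing notes the genome build was mm10. No source used here names the aligner, counter, annotation or strand setting. Even counts were 2.58 to 3.19 times as frequent as odd counts between 1 and 8, so both mates of a read pair may have been counted, and halved counts were tried. The 27 date-like names (0.178% of counts) stayed in the fit.

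Genes were filtered with filterByExpr and fitted with edgeR 4.0.16 in R 4.3.3 (TMM scaling, robust quasi-likelihood test, two-sided, threshold 0.05). A 95% interval is the log2 fold change with its SE and the fit's degrees of freedom. Chi-square per gene was 28.6 to 63.4 between libraries of the same group, so none was a copy. The fit was tested on counts simulated from these libraries, where the share of false calls was above the threshold. The counts of called genes may therefore hold more false calls than the threshold states. Fewer genes were changed in the simulation than were called here, so its share of false calls need not be that of these calls. Exon and coding lengths are from GENCODE M21 (GRCm38, the same build as mm10). Older symbols were looked up in a RefSeq table. Alternatives used limma 3.58.1 and DESeq2 1.42.0.

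The members and lists were chosen with earlier results of these data known. Named are all 10 members, list genes past the threshold (up to 5 per list), Srebf1, Mlxipl, Pparg, Ppara and 3 nearest genes for each of 2 members; other genes were named after their values were seen.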

Additional observations from a re-analysis of the deposited data

How the results depend on the processing

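Gpam, Lpin2 and Mogat1 passed under all 10 alternatives (scaling by DESeq2 size factors or library totals, no filter, a mean of 1 CPM, DESeq2, limma-voom, a threshold of 0.1, no robust trend, the replicate block, halved counts) and without each library. The count of members called was 3 throughout, except 4 with DESeq2 and at a threshold of 0.1, where Dgat2 was added. The other 6 members passed in none. With library totals 73.4% of calls were higher, against 59.5%, and the median of all genes was 0.07. At a threshold of 0.1, 2291 genes were called in place of 1426, and 20 list genes around the members in place of 10, which were 21 with DESeq2. With 1 library left out, 653 (without IRE1PKO 01) to 1484 genes and 4 (without IRE1PKO 01) to 12 (without IRE1fl 01) list genes were called. The lower counts, without IRE1fl 02, IRE1fl 03 or IRE1PKO 02, were 896, 789 and 815 genes and 5, 6 and 6 list genes. Fewer libraries leave less to estimate the spread; otherwise the cause was not tested. Deviations of same-numbered libraries from their group means correlated weakly (r = 0.07, -0.02 and 0.10), though 4 of 6 libraries correlated best with their own number. The numbers were not taken as pairs, and whether they mark a shared batch was not tested. With the replicate block 1865 genes, 3 members and 14 list genes were called, and Gpd2 (adjusted p = 0.0664) and G0s2 (0.125) were not. G0s2 was also not called with no filter (0.0554), nor Etnk2 with library totals (0.0589), and Srebf1 was called lower with DESeq2 (0.017). Mogat1 rests on 24 to 54 counts in the IRE1fl libraries, where counting error is a part of the spread. How large a part was not tested.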

Other observations

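One control library stood apart in several of the genes described, a pattern picked out after the values were seen. IRE1fl 01 had the lowest Lpin1 of the 6 libraries (101 CPM, next lowest 150 CPM) and the highest Srebf1 (934 CPM, next highest 561 CPM). It also had the lowest Ces1d, a carboxylesterase of triglyceride turnover, with 436 CPM against 577 and 752 CPM in IRE1fl and 715 to 857 CPM in IRE1PKO. Its Gpam (302 CPM) and Dgat2 (823 CPM) lay close to the other IRE1fl libraries. Groups of 3 are too small for a test of outlying libraries.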
